A study of Mus musculus with 23 samples.

Results

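The genes described here are 48 genes of DNA replication and S phase, the stage of the cell cycle in which a cell copies its DNA, measured on expression microarrays through mouse muscle cell differentiation. They were taken from a fixed list of names, which was drawn up with earlier results of these data known. All 48 were among the 36095 gene names on the array. Where a gene had several probes the brightest was used, and 10 of the 48 had more than 1 probe. By role they comprise 12 genes of origin licensing, 8 of origin firing, 7 of the polymerases and primase, 7 of the clamp, its loader and the single-strand binding protein, 2 of Okazaki fragment joining, 5 of nucleotide supply, 2 of chromatin assembly and 5 cell cycle transcription factors.

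A cell prepares for S phase by loading the MCM helicase onto replication origins, a step called licensing, and starts copying when kinases and helicase partners switch the loaded helicase on. Many of the enzymes involved are transcribed under E2F factors, which are released from the retinoblastoma protein as a cell commits to division. Muscle precursor cells, or myoblasts, leave the cell cycle for good as they differentiate into multinucleate myotubes, so genes of DNA replication are among the classical markers of that exit.

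Each array hybridised the RNA of 1 sample in 1 colour. The 7 groups held 3 samples each. The embryonic stem cells were lines of 3 strains, 129Sv, 129X1/SvJ and 129/Ola, of which the third had been hybridised on 2 arrays that were averaged. The myoblasts and myotubes were primary cells of strain C57BL/6J: myoblasts at passage 0, proliferating myoblasts at passages 8 to 10 in serum-rich growth medium with bFGF on collagen, and myotubes after 1, 2 and 4 days in low-serum differentiation medium on Matrigel. Whole quadriceps muscle was represented by 1 sample of strain C57BL/6J and 2 of the mixed background 129Sv/C57BL/6J. Every sample with a stated sex was male. Strain and group cannot be told apart for the stem cells. The stem cell replicates were different lines, and the quadriceps samples differed in strain. Beyond that, the labels do not say that the replicates were separate cultures or animals. The p-values therefore measure only the spread between these samples, which among the myoblasts and myotubes may be technical. The number of arrays limits the precision.

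A level below is log2 of the array's processed signal minus the 75th percentile of that array, so that 0 is the signal at that percentile; levels of different genes are on different probes and are not set against each other. A change is a difference of mean levels with its standard error (SE) from a limma fit over all 21 samples. A gene was tested where its probe was well above background on all samples of at least 1 of the 2 groups, and it was called higher or lower at a fold of at least 2 and a Benjamini-Hochberg adjusted p under 0.05 over all genes tested. In RNA from many cells, fewer cells of a type and less RNA per cell cannot be told apart.

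One array stood apart. Replicate 1 of the proliferating myoblasts was dim, with a 75th percentile of 87.7 intensity units against 208 to 765 on the other arrays, and it correlated with the other proliferating samples at 0.898 and 0.881 over genes, where those correlated with each other at 0.965. Counts are therefore given with and without it, and the calls that differ are named; leaving it out moved the change of a median member by 0.13 on the log2 scale and of no member by more than 0.48. The stem cell markers followed the labels, and the myotube markers did so among the cultures. All 7 stem cell markers were above background in every stem cell sample. They summed there to 1050 to 1310 units of the 75th percentile signal, against 0.796 to 13.9 in the other groups. The 7 myotube markers summed to 2980 to 7360 in myotubes, 524 to 1150 in proliferating myoblasts and 884 to 1550 in passage 0 myoblasts. Of 6 myoblast markers, 5 were above background in every myoblast, myotube and quadriceps sample, and the probe for Myf5 was above background in no sample. The myoblast markers summed to 131 to 185 units at passage 0, 148 to 259 in proliferating myoblasts and 266 to 436 in myotubes. This list therefore did not mark the myoblasts off from the myotubes.

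Because most of the genes moved together over differentiation, their promoters were searched for the E2F site. The RefSeq promoter table, of build GRCm38.p6, held 40 of the 48 genes, with 250 bases before and 50 after each transcription start; no entry was matched for Gmnn, Mcm4, Gins1, Gins2, Gins4, Prim2, Pole and Rfc2. The 4 spellings TTTCCCGC, TTTGGCGC, TTTCGCGC and TTTGCCGC were sought on both strands. At least 1 of them stood in the promoters of 15 of the 40 genes (37.5%), against 704 of the 27025 genes in the table (2.6%). Among genes with 1 promoter in the table the shares were 12 of 34 (35.3%) and 530 of 22862 (2.32%). The bases CCAAT were in 57.5% of the genes' promoters and 41.1% of all, and TTTGAA, the core of the CHR element, in 20.0% and 20.2%; the median GC content was 60.8% and 52.8%. A match describes the letters and does not show a bound site, and the absence of these letters from the window says nothing about the factor. The sequences below show the match in 5 genes that fell in myotubes, Mcm5, Mcm6, Cdc6, Pola1 and Cdt1, in E2f2 and Gins3, which were not called lower there, and in Orc1, which could be tested there only without the dim proliferating array, each 5′ to 3′ on the gene's strand with the matches in capitals. In Mcm5 and Mcm6, 2 matches overlap on opposite strands. The other 7 genes with a match were Mcm3, Mcm7, Lig1, Pold1, Pole2, Rfc3 and E2f7.
Mcm5, chr8:75109322-75109401, plus strand, bases -187 to -108 from the start: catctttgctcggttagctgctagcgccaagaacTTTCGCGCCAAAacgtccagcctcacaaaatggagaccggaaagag
Mcm6, chr1:128359741-128359820, minus strand, bases -115 to -36: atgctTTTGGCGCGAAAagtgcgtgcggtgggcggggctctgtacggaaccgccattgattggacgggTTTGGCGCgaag
Cdc6, chr11:98907977-98908056, plus strand, bases -174 to -95: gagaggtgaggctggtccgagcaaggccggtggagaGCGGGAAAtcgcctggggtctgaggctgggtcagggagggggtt
Pola1, chrX:93632250-93632329, minus strand, bases -174 to -95: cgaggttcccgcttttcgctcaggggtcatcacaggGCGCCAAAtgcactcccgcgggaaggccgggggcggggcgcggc
Cdt1, chr8:122568035-122568064, plus strand, bases 21 to 50: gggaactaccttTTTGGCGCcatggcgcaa
E2f2, chr4:136172294-136172323, plus strand, bases 21 to 50: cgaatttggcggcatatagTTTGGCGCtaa
Gins3, chr8:95633482-95633561, plus strand, bases -77 to 3: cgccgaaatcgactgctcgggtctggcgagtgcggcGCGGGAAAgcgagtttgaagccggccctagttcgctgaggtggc
Orc1, chr4:108579384-108579463, plus strand, bases -70 to 10: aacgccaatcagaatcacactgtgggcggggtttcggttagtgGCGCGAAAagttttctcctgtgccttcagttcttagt

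The first question was how the replication genes changed as proliferating myoblasts were switched to differentiation medium. On day 1, 22 of 46 tested genes were lower and 1 was higher, where 3.25% and 5.91% of all genes tested were called lower and higher. On day 2, 42 of 46 were lower and 1 was higher, against 9.96% and 15.1% of all genes. On day 4, 41 of 46 were lower and 1 was higher, against 10.2% and 14.4% of all genes. The median change of the tested members was -1.37, -3.10 and -2.76 on days 1, 2 and 4, where the median over all genes was -0.04, 0.09 and 0.03. The 3 comparisons share the proliferating samples and are not independent of each other. Without replicate 1 of the proliferating myoblasts, the counts of lower and higher genes were 23 and 1 on day 1, 43 and 1 on day 2 and 42 and 1 on day 4, now of 48 tested. These were not all the same genes. On day 1 the calls of Cdc45, Gins2, Rfc3, Rfc5, Rpa2 and Tk1 were lost (adjusted p = 0.054, 0.062, 0.066, 0.057, 0.06 and 0.093), and Orc1, Orc6, Mcm4, Cdc7, Dbf4, Pcna and E2f7 were called lower. On days 2 and 4 Orc1 and Cdc7 were called lower, while Gins4 was lost on day 2 (adjusted p = 0.1) and Gmnn on day 4 (adjusted p = 0.051). Each of the 3 slides carried 1 sample of every group, and within the slides the median difference of the tested members ranged from -2.49 to -0.72 on day 1, from -3.31 to -2.93 on day 2 and from -3.10 to -2.34 on day 4. The myotube markers, at 2980 to 3790 units on day 1, 4600 to 6620 on day 2 and 4310 to 7360 on day 4 against 524 to 1150 in proliferating myoblasts, moved with these groups; their part in the result was not tested.

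The genes called included some with and some without an E2F spelling in the promoter. On day 2, 12 of 14 tested genes with a match and 22 of 24 without one were lower than in proliferating myoblasts, with median changes of -4.23 and -2.70. On day 4 the counts were again 12 of 14 and 22 of 24, with medians of -3.38 and -2.52, and on day 1 they were 8 of 14 and 11 of 24, with medians of -1.64 and -1.28. No test was made of the difference between these 2 sets.

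**Figure D1:**
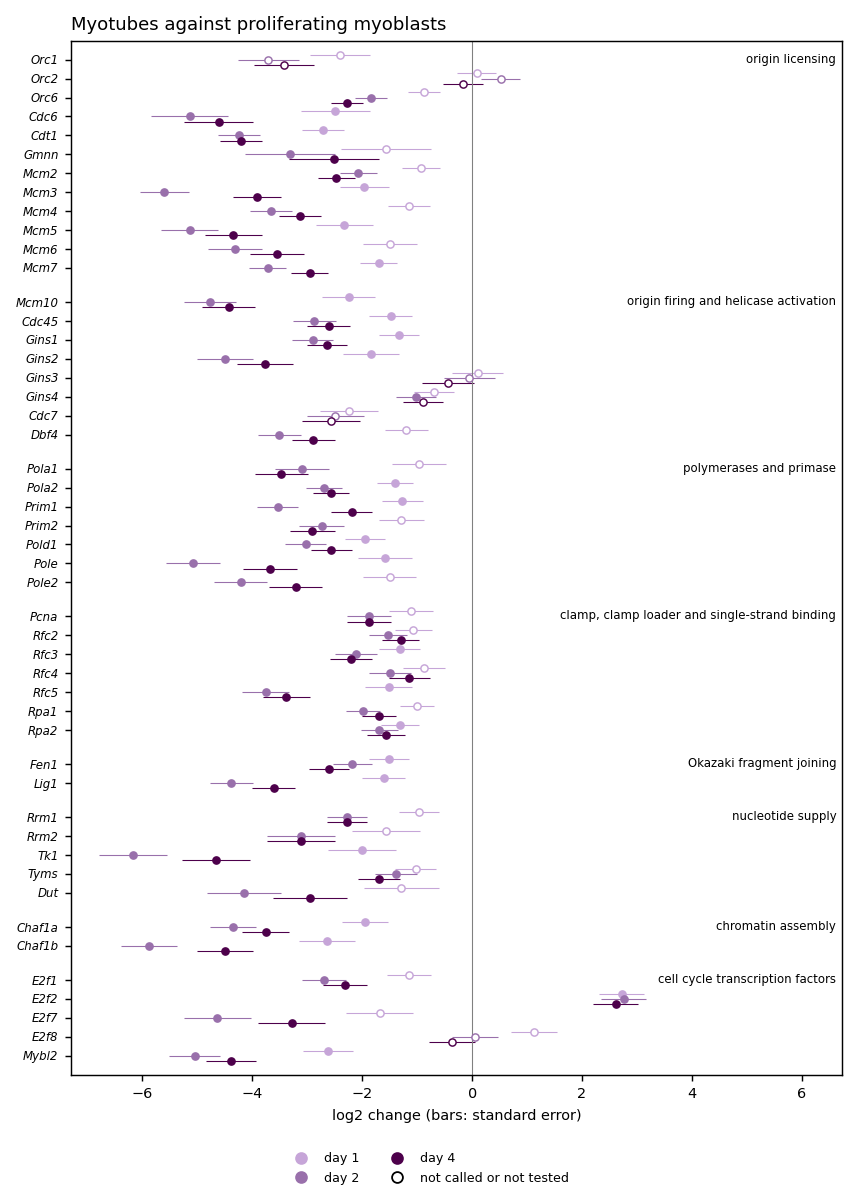
Log2 change of each of the 48 genes in day 1, day 2 and day 4 myotubes against proliferating myoblasts, grouped by role along the vertical axis; dots are changes, bars their standard errors, filled dots called genes and open dots genes not called or not tested. Most genes lie left of 0 on all 3 days and farther left on days 2 and 4 than on day 1, while E2f2 lies right of 0, with changes of 2.72, 2.76 and 2.61.

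Of the 48 genes, 22 were called lower on all 3 days, and 19 were called lower on days 2 and 4 but not on day 1. The second set includes Mcm2, Mcm4, Mcm6, Pola1, Pcna, Rrm1, Rrm2, E2f1 and E2f7, all of which had negative day 1 changes that were not called. Without the dim proliferating array, Mcm4, Pcna and E2f7 were called on day 1 too (adjusted p = 0.03, 0.024 and 0.04). The day 1 group itself was spread: its replicate 3 was the lowest of the 3 samples for 46 of the 48 genes. The median level of the 48 genes was 3.01, 3.48 and 2.87 in the proliferating samples, 2.23, 2.27 and 0.92 on day 1, -0.34, -0.62 and -0.57 on day 2, and 0.90, -0.14 and 0.33 on day 4. That day 1 sample also had the highest sum of myotube markers of its group, 3790 units against 2980 and 3270, and the part of this in the result was not tested. Without it, 7 of the 22 calls of day 1 were left: Chaf1b, Mybl2, Mcm10, Mcm7, Cdt1, Pold1 and Mcm3. Without replicate 2 of the proliferating myoblasts, 14 were. With only the day 1 and proliferating samples in the limma fit, 0 members were called on day 1, and with quantile normalization and array weights 34 and 35 were lower.

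Among the licensing genes, 5 of 11 tested were lower on day 1, 10 of 11 on day 2 and 10 of 11 on day 4, with median changes of -1.56, -3.72 and -3.13. Mcm3 and Mcm5 are subunits of the hexameric MCM helicase. Mcm5 had levels of 4.66, 4.38 and 3.48 in proliferating myoblasts, 2.37, 2.56 and 0.60 on day 1, -1.01, -0.62 and -1.27 on day 2, and 0.21, -1.10 and 0.37 on day 4. All 9 myotube samples lay below the 3 proliferating ones. Its changes were -2.33 ± 0.52 on day 1 (SE, adjusted p = 0.0078), -5.14 ± 0.52 on day 2 (adjusted p = 2.9e-06) and -4.35 ± 0.52 on day 4 (adjusted p = 1.2e-05). Mcm3 showed the largest change of the licensing genes on day 2, -5.60 ± 0.44 (adjusted p = 5e-07), a 48.6-fold lower mean, with levels of -0.67, -0.89 and -1.16 on day 2 against 4.74, 4.93 and 4.44 in proliferating myoblasts.

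Cdt1, which brings the MCM helicase to origins, had levels of 5.33, 5.11 and 5.16 in proliferating myoblasts, 3.05, 2.73 and 1.68 on day 1, 0.59, 1.41 and 0.86 on day 2, and 1.69, 0.57 and 0.74 on day 4. It was already clearly separated on day 1, with a change of -2.71 ± 0.38 (adjusted p = 0.00025), and its changes on days 2 and 4 were close to each other, -4.25 and -4.20. Cdc6, its partner in helicase loading, had levels of 0.04, -0.31 and -0.77 in proliferating myoblasts and -1.91, -2.43 and -4.18 on day 1, a change of -2.49 ± 0.63 (adjusted p = 0.018). On day 2 it was measured in 2 samples, at -5.12 and -5.86, because 1 spot was marked as an outlier by the scanner software. Of the 3 day 2 samples 1 counted as above background, and that count did not leave out the marked spot. The measured change of -5.14 ± 0.70 (adjusted p = 4.7e-05) therefore rests partly or wholly on signals not above background. On day 4 the Cdc6 probe was above background in no sample, and the gene was at least 9.76-fold lower than in proliferating myoblasts (measured change -4.61, adjusted p = 4.9e-05). Such bounds set the mean of the brighter group against the higher of the detection limit and the measured signal on each array of the dimmer one. Gmnn, which encodes geminin, the inhibitor of Cdt1, was lower on days 2 and 4 (-3.32 ± 0.82 and -2.52 ± 0.82, adjusted p = 0.0054 and 0.029), with 1 of 3 day 2 samples above background. The day 4 call was lost in 8 of 17 alternative settings, where the adjusted p reached 0.13.

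Of 7 tested genes of origin firing, 4 were lower on day 1, 6 on day 2 and 5 on day 4, with medians of -1.33, -2.90 and -2.64. Mcm10, which helps to activate the loaded helicase, had levels of 3.04, 3.27 and 2.86 in proliferating myoblasts, 1.47, 1.12 and -0.17 on day 1, -1.40, -1.73 and -2.00 on day 2, and -0.98, -2.60 and -0.55 on day 4. No myotube sample reached the proliferating range. The changes were -2.25 ± 0.48, -4.77 ± 0.48 and -4.43 ± 0.48 on the 3 days (adjusted p = 0.006, 3e-06 and 5.8e-06). Gins2, a subunit of the 4-protein GINS complex of the active helicase, fell by 1.84, 4.49 and 3.77. Gins1, of the same complex, had levels of 1.23, 2.27 and 1.47 in proliferating myoblasts, 0.73, 0.82 and -0.57 on day 1, -1.03, -1.46 and -1.25 on day 2, and -0.67, -1.12 and -1.17 on day 4. It fell by 1.33 on day 1 (adjusted p = 0.031), 2.90 on day 2 and 2.64 on day 4. Dbf4, the activating subunit of the Cdc7 kinase that fires origins, was lower on days 2 and 4 (-3.51 ± 0.39 and -2.89 ± 0.39), with 2 of 3 samples above background on each of those days.

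All 7 genes of the polymerases and primase were lower on days 2 and 4, and 4 of 7 were on day 1, with medians of -1.41, -3.09 and -2.91. Pole, the catalytic subunit of the leading-strand polymerase, had the largest change, -5.08 ± 0.49 on day 2 (adjusted p = 1.8e-06). Its levels were 2.96, 4.08 and 3.63 in proliferating myoblasts, 2.37, 2.26 and 1.29 on day 1, -1.32, -1.52 and -1.73 on day 2, and 0.09, -1.49 and 1.03 on day 4. Its day 2 samples lay close together and its day 4 samples far apart. The day 1 call of Pole was lost in 11 of 17 alternative settings, where the adjusted p reached 0.37, and that of Prim1 in 6. Pola1, the catalytic subunit of the polymerase that starts each new strand, had levels of 0.10, 0.87 and 1.08 in proliferating myoblasts and 0.59, -0.28 and -1.14 on day 1. These overlapped, and the day 1 change of -0.96 ± 0.49 was not called (adjusted p = 0.27). On day 2 it had levels of -2.39, -2.67 and -2.15 and on day 4 of -3.19, -3.65 and -1.5, with 2 of the 3 day 4 samples above background. These did not overlap with the proliferating samples, and the changes were -3.09 ± 0.49 and -3.47 ± 0.49 (adjusted p = 0.00014 and 5.3e-05).

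The clamp and clamp loader genes were lower on days 2 and 4 in 7 of 7 cases and on day 1 in 3 of 7, with smaller medians of -1.11, -1.87 and -1.70. Pcna, the sliding clamp that holds polymerases on DNA, had levels of 4.21, 5.58 and 5.09 in proliferating myoblasts, 4.24, 4.21 and 3.09 on day 1, 2.40, 3.48 and 3.39 on day 2, and 2.76, 3.08 and 3.40 on day 4. Day 1 overlapped with the proliferating samples through the dim replicate 1 array, and the change of -1.11 ± 0.40 was not called (adjusted p = 0.099). Without that array it was, at -1.49 ± 0.40 (adjusted p = 0.024). On days 2 and 4 the changes were -1.87 ± 0.40 and -1.88 ± 0.40 (adjusted p = 0.0021 and 0.002). Rfc5, a subunit of the clamp loader, changed most in this role, by -1.52 ± 0.43, -3.76 ± 0.43 and -3.38 ± 0.43 (adjusted p = 0.033, 7.2e-06 and 2.3e-05), of which the day 1 call was lost without the dim array (-1.5 ± 0.48, adjusted p = 0.057). Its levels were 0.64, 0.17 and 0.22 on day 2 against 4.15, 4.43 and 3.73 in proliferating myoblasts.

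Fen1 and Lig1, which trim and seal the fragments of the lagging strand, were lower on all 3 days. Fen1 had levels of 4.41, 4.00 and 3.67 in proliferating myoblasts, 2.90, 2.94 and 1.70 on day 1, 1.42, 2.05 and 2.07 on day 2, and 1.70, 1.41 and 1.14 on day 4, with no overlap between proliferating and myotube samples. The changes were -1.51 ± 0.36, -2.18 ± 0.36 and -2.61 ± 0.36 (adjusted p = 0.013, 0.00022 and 4.6e-05). Lig1 changed by -1.61 ± 0.39, -4.38 ± 0.39 and -3.61 ± 0.39, and its 3 day 2 samples were nearly equal, at 0.42, 0.37 and 0.45, against 5.10, 5.11 and 4.16 in proliferating myoblasts.

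Among the 5 genes of nucleotide supply, 1 was lower on day 1 and 5 on days 2 and 4, with medians of -1.29, -3.11 and -2.95. Tk1, the thymidine kinase of dividing cells, was that 1 gene and had the largest change of all 48 on day 2. Its levels were 4.56, 4.79 and 3.90 in proliferating myoblasts, 2.95, 3.33 and 0.95 on day 1, -1.14, -1.95 and -2.18 on day 2, and 1.10, -1.84 and 0.00 on day 4. The groups did not overlap on any day, but the day 4 samples spanned almost 3 log2 units. The changes were -2.01 ± 0.62, -6.18 ± 0.62 and -4.66 ± 0.62 (adjusted p = 0.049, 2.9e-06 and 3.2e-05), the second a 72.4-fold lower mean. The day 1 call was lost in 10 of 17 alternative settings, among them the one without the dim proliferating array (-1.94 ± 0.69, adjusted p = 0.093). Rrm2, the S phase subunit of ribonucleotide reductase, had levels of 6.01, 6.68 and 5.44 in proliferating myoblasts, 4.71, 5.45 and 3.29 on day 1, 2.62, 4.39 and 1.79 on day 2, and 2.96, 2.92 and 2.89 on day 4. Day 1 touched the proliferating range and was not called (-1.56 ± 0.62, adjusted p = 0.13). On days 2 and 4 Rrm2 fell by 3.11 and 3.12 (adjusted p = 0.0011 and 0.001). Dut, which removes dUTP, fell by 4.15 on day 2 and 2.95 on day 4.

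Chaf1a and Chaf1b, subunits of the complex that places histones on newly copied DNA, were both lower on all 3 days and had the largest median of the roles, -2.30, -5.12 and -4.13. Chaf1b had levels of 5.66, 5.33 and 4.27 in proliferating myoblasts, 2.82, 3.05 and 1.45 on day 1, -0.37, -0.91 and -1.09 on day 2, and 1.41, -0.47 and 0.81 on day 4. The groups were well apart on every day. The changes were -2.65 ± 0.51 on day 1 (adjusted p = 0.0027), -5.88 ± 0.51 on day 2 (adjusted p = 1.4e-06), which is a 58.8-fold lower mean, and -4.50 ± 0.51 on day 4 (adjusted p = 7.5e-06). Chaf1a fell by 1.95, 4.36 and 3.76.

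**Figure D2:**
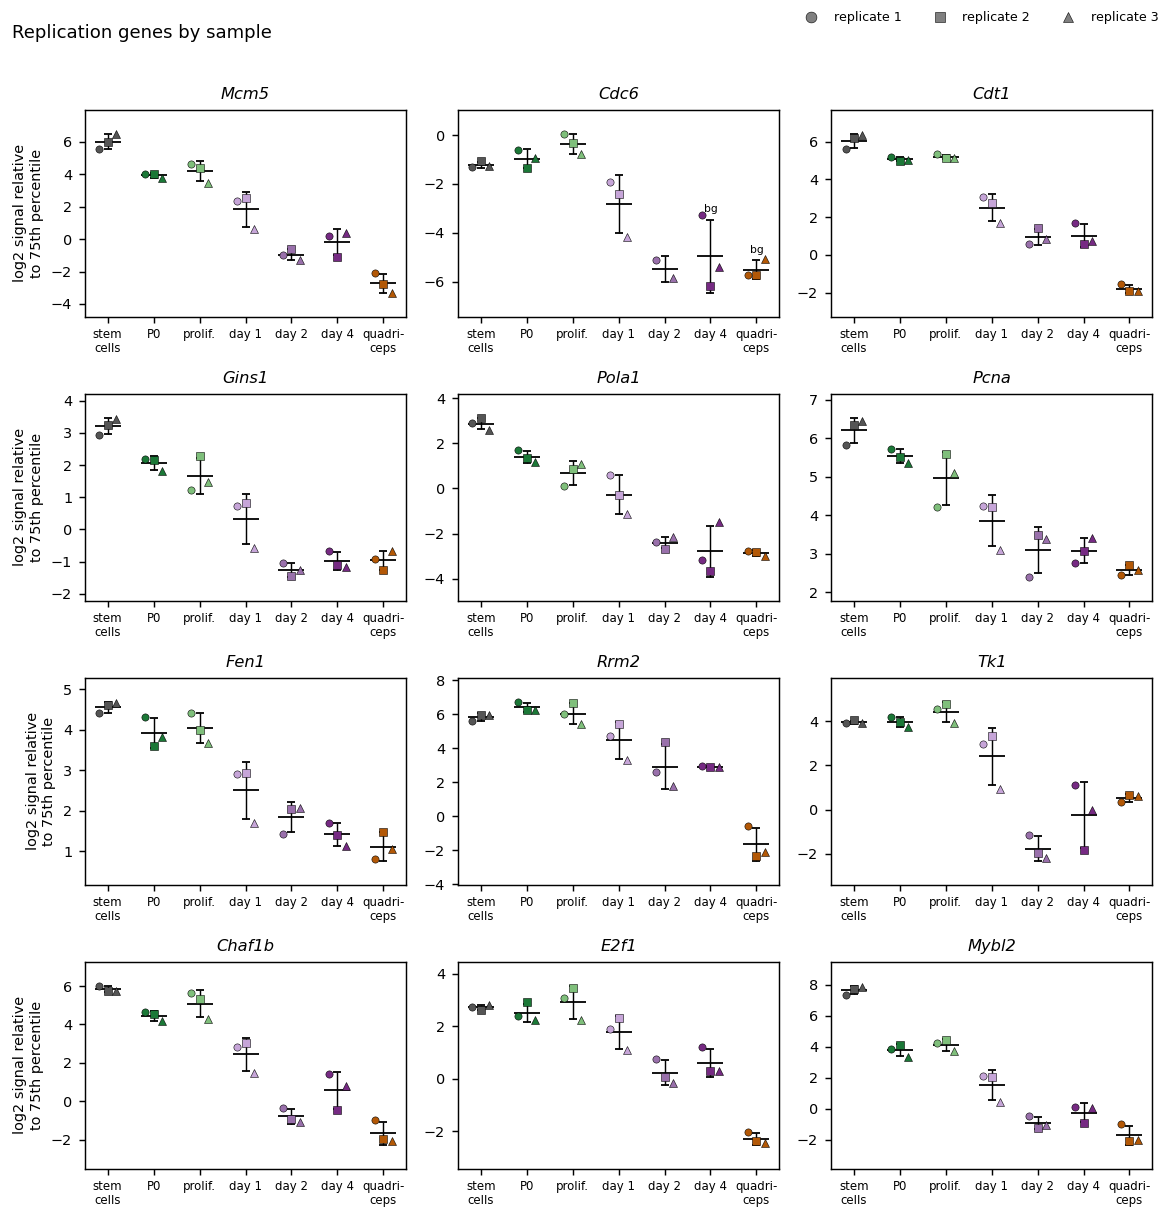
Level of 12 genes (log2 signal minus the 75th percentile of the array) in every sample of the 7 stages, in the order embryonic stem cells, passage 0 myoblasts, proliferating myoblasts, day 1, day 2 and day 4 myotubes and quadriceps; symbols are replicates, bars the mean and SD, and "bg" marks a group with no sample above background. Levels drop from the proliferating to the day 2 samples in each panel, as in Mcm5, at 4.66, 4.38 and 3.48 in proliferating myoblasts and -1.01, -0.62 and -1.27 on day 2.

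The transcription factors did not move alike: 1 of 5 was lower on day 1 and 3 on days 2 and 4, while 1 was higher on each day. Mybl2, or B-Myb, which drives genes of late S phase and mitosis, had levels of 4.23, 4.45 and 3.70 in proliferating myoblasts, 2.08, 2.04 and 0.40 on day 1, -0.50, -1.22 and -1.05 on day 2, and 0.12, -0.95 and 0.05 on day 4. No myotube sample came near the proliferating ones, and it fell by 2.62, 5.05 and 4.39 (adjusted p = 0.0014, 1.5e-06 and 4.6e-06). E2f1, an activator of S phase genes, had levels of 3.06, 3.46 and 2.22 in proliferating myoblasts, 1.90, 2.30 and 1.09 on day 1, 0.76, 0.05 and -0.15 on day 2, and 1.22, 0.29 and 0.28 on day 4. It overlapped on day 1, where the change of -1.15 ± 0.40 was not called (adjusted p = 0.081), and fell by 2.70 on day 2 and 2.32 on day 4 (adjusted p = 7.9e-05 and 0.00032). E2f7, a repressor of E2F targets that is itself an E2F target, changed by -4.64 on day 2 and -3.28 on day 4 on its brightest probe, and by -5.12 and -3.76 without the dim proliferating array.

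E2f2 was the exception called in the opposite direction. Like E2f1 it belongs to the activator E2Fs. Its levels were 1.89, 3.14 and 2.87 in proliferating myoblasts, 5.33, 5.23 and 5.52 on day 1, 5.20, 5.54 and 5.46 on day 2, and 5.26, 5.29 and 5.17 on day 4. All 9 myotube samples lay above every proliferating one and within a narrow band. The changes were 2.72 ± 0.41, a 6.6-fold higher mean, on day 1 (adjusted p = 0.00047), 2.76 ± 0.41 on day 2 (adjusted p = 8.4e-05) and 2.61 ± 0.41 on day 4 (adjusted p = 0.00015). The value rests on 1 probe, at chr4:135750562-135750621 of the array's build mm9, which was above background in all 21 samples.

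E2f8, the other repressor of the pair with E2f7, was not called on any day. It had levels of 0.94, 2.12 and 1.55 in proliferating myoblasts, 2.83, 2.84 and 2.32 on day 1, 1.83, 1.36 and 1.58 on day 2, and 1.28, 0.54 and 1.73 on day 4. All 3 day 1 samples lay above the proliferating ones (1.12 ± 0.42, adjusted p = 0.11), while days 2 and 4 overlapped with them (changes of 0.05 and -0.36). Orc2, a subunit of the origin recognition complex, had levels of -0.88, 0.66 and 0.24 in proliferating myoblasts and of -0.55 to 0.62 over the 9 myotube samples. Its changes were 0.08, 0.52 and -0.17 with an SE of 0.36 (adjusted p = 0.93, 0.33 and 0.8). The lowest of those proliferating levels is that of the dim array. Without it the Orc2 changes were -0.36, 0.08 and -0.62 (adjusted p = 0.58, 0.88 and 0.16), again not called. Gins3, another subunit of GINS, had levels of 4.47, 4.24 and 4.12 in proliferating myoblasts, 4.67, 5.14 and 3.32 on day 1, 3.96, 4.50 and 4.21 on day 2, and 4.43, 4.42 and 2.65 on day 4. Its changes of 0.10, -0.05 and -0.44 had an SE of 0.47 and adjusted p-values of 0.94, 0.96 and 0.57.

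Gins4 was called lower on day 2 only, at -1.02 ± 0.36 (adjusted p = 0.045). The changes on days 1 and 4 were -0.69 and -0.89 and were not called (adjusted p = 0.29 and 0.082). The day 2 call was lost in 10 of 17 alternative settings, among them the one with the replicate number as a block (adjusted p = 0.05). Its levels were 2.39, 2.32 and 1.71 in proliferating myoblasts and 1.06, 1.24 and 1.05 on day 2. Of the 4 GINS subunits, Gins1 and Gins2 were called lower on all 3 days, Gins4 on 1 day and Gins3 on none. Without the dim array the calls of Gins2 on day 1 (-1.74 ± 0.56, adjusted p = 0.062) and of Gins4 on day 2 (-0.90 ± 0.39, adjusted p = 0.1) were lost.

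Orc1, another subunit of the origin recognition complex, and Cdc7, the kinase partner of Dbf4, could not be tested over all samples, because their probes were above background in 2 of 3 proliferating samples and in fewer of the myotube samples. Without the dim proliferating array both were tested and called lower on all 3 days. Orc1 then had adjusted p-values of 0.021, 0.00027 and 0.00058, and Cdc7 of 0.019, 0.0035 and 0.0029. Orc1 was at -2.13, -2.18 and -2.35 in proliferating myoblasts and below background in all samples of days 2 and 4, where it was at least 3.48-fold and at least 2.66-fold lower. Cdc7 was at -2.49, -3.03 and -1.87 in proliferating myoblasts and again below background on days 2 and 4, at least 2.95-fold and at least 2.25-fold lower.

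**Figure D3:**
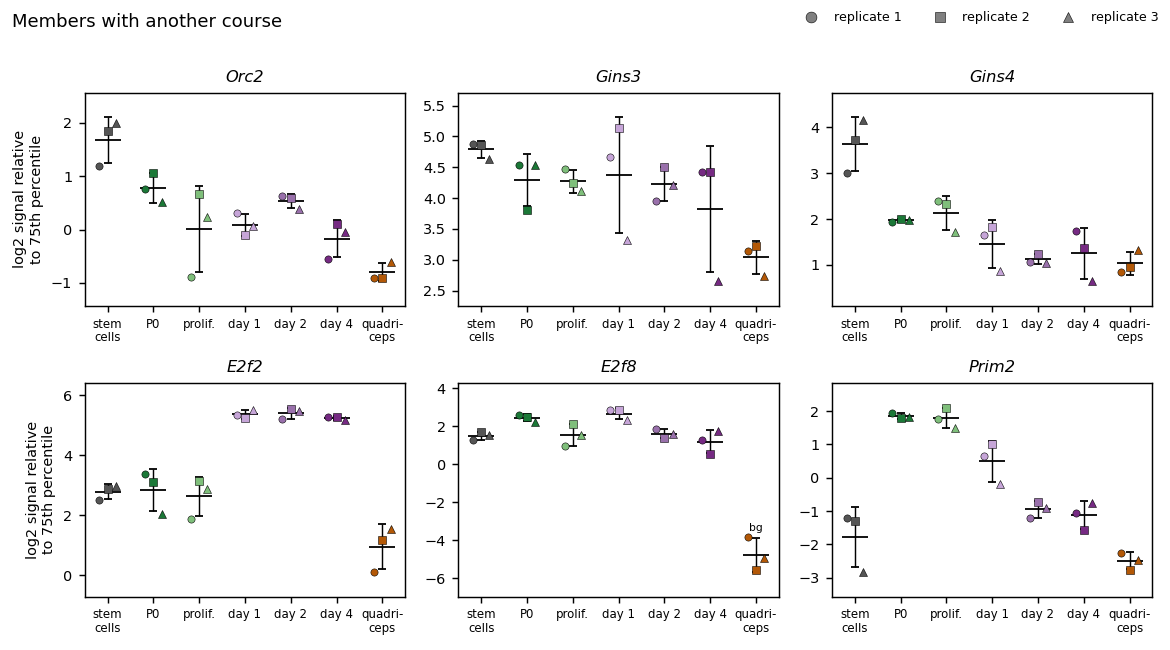
Level of 6 genes that departed from the others (log2 signal minus the 75th percentile of the array) in every sample of the 7 stages; symbols are replicates, bars the mean and SD, and "bg" marks a group with no sample above background. E2f2 lies between 5.17 and 5.54 in all 9 myotube samples, above the 3.14 of its highest proliferating sample. Orc2 stays between -0.55 and 0.62 in them, within the range of its proliferating samples, -0.88 to 0.66, whose lower end is the dim array.

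The timing within differentiation was compared in a second step, chosen after these values had been seen. Day 2 was below day 1: 24 of 45 tested genes were lower and none was higher, where 2.17% and 0.6% of all genes were called lower and higher, and the median change was -1.55 against 0.13 over all genes. At an unadjusted limma p under 0.05, 35 were lower and 0 higher. The largest changes were those of Tk1 (-4.17 ± 0.62, adjusted p = 0.0012), Mcm3 (-3.64 ± 0.44, adjusted p = 0.00082), Pole (-3.50 ± 0.49, adjusted p = 0.0011) and Chaf1b (-3.23 ± 0.51, adjusted p = 0.0017). The count was 13 without replicate 1 of day 1, 14 without replicate 2, and 7 with only those 2 groups in the fit. Within the slides the median difference ranged from -2.17 to -0.89. Day 4 against day 2 gave no called member in the limma fit, where 0.062% and 0.248% of all genes were called lower and higher, and 6 members had an unadjusted p under 0.05, all higher on day 4: Chaf1b, Prim1, Mcm7, Tk1, Mcm3 and Pole. The means were lower on day 2 than on day 4 for 33 of the 48 genes, and the median change was 0.32 against -0.06 over all genes. The share of all genes with that order of means was not computed. Without replicate 1 of day 4, whose array had the fewest spots above background (39.1%), the median was 0.14 against -0.09 over all genes. It was 0.37 and 0.34 without replicates 2 and 3 of day 4. Without replicate 2 of day 4, Pole was called higher. Mcm3 was nearest to a call, at 1.68 ± 0.44 (adjusted p = 0.11), with levels of 1.16, -0.04 and 1.21 on day 4 against -0.67, -0.89 and -1.16 on day 2.

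Over the longer interval, 25 of 45 tested genes were lower on day 4 than on day 1 and none was higher, where 4.27% and 4.04% of all genes were called, and at an unadjusted p under 0.05 the counts were 34 and 0. The largest change was that of Tk1 (-2.65 ± 0.62, adjusted p = 0.012). Pola1 followed, at -2.50 (adjusted p = 0.0037), and E2f8 was lower as well, at -1.48 (adjusted p = 0.037). The count rested on single samples: without replicate 1 or replicate 2 of day 1, or without replicate 2 of day 4, 5 genes were called lower, and with only the 2 groups in the fit 0 were. Within the slides the median difference ranged from -2.16 to -0.38.

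Quadriceps muscle was set against day 4 myotubes to compare adult tissue with the latest culture stage. Of 40 tested genes 15 were lower and 1 was higher, where 16.4% and 14.7% of all genes were called lower and higher; the median change was -0.70 against -0.06 over all genes. By role, the lower genes were 4 of 10 for licensing, 2 of 6 for origin firing, 2 of 5 for the polymerases, 1 of 7 for the clamp, none of 2 for Okazaki fragments, 1 of 4 for nucleotides, 1 of 2 for chromatin assembly and 4 of 4 for the transcription factors, whose median was -3.59. Within the slides the median difference of the tested members ranged from -0.96 to -0.49. The probes of Orc1, Cdc6, Cdc7, Dbf4, Pole2 and E2f8 were above background in no quadriceps sample.

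E2f2 and E2f8, which were not called lower in myotubes against proliferating myoblasts, were lower in muscle. E2f2 had levels of 0.11, 1.18 and 1.55 in quadriceps, against 5.26, 5.29 and 5.17 on day 4, a change of -4.29 ± 0.41 (adjusted p = 3.7e-07) and a 19.6-fold lower mean. E2f8 was at least 26.2-fold lower in quadriceps (adjusted p = 1.4e-08), with a mean of -4.78 below background against 1.18 on day 4. E2f1 was at -2.04, -2.37 and -2.47 in quadriceps, against 1.22, 0.29 and 0.28 on day 4 (-2.89 ± 0.40, adjusted p = 2e-05). Mybl2 was lower as well, by a smaller amount (-1.46, adjusted p = 0.019).

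Rrm2 fell to levels of -0.55, -2.32 and -2.08 in quadriceps, against 2.96, 2.92 and 2.89 on day 4, a change of -4.57 ± 0.62 (adjusted p = 1.6e-05) and a 23.7-fold lower mean. Its partner Rrm1, the large subunit of the same reductase, was at 1.81, 2.06 and 2.34 in quadriceps, against 2.27, 1.73 and 2.52 on day 4, and overlapped (-0.11 ± 0.36, adjusted p = 0.86). Cdt1 was at -1.56, -1.91 and -1.93 in quadriceps, against 1.69, 0.57 and 0.74 on day 4 (-2.80 ± 0.38, adjusted p = 1.6e-05). Mcm5 and Chaf1b were also lower, by -2.55 ± 0.52 and -2.25 ± 0.51 (adjusted p = 0.00084 and 0.002). Tk1, Fen1, Gins1, Pcna and Pole were not called.

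Pola2, the regulatory subunit beside Pola1, was the only member called higher in quadriceps. Its levels were -1.55, -2.18 and -1.88 in quadriceps, against -3.71, -3.58 and -3.02 on day 4, where 2 of 3 samples were above background (1.57 ± 0.33, adjusted p = 0.0012). It was not called with normexp background correction, with the authors' own values or where both groups had to be above background. Without replicate 1 of day 4 the count of higher genes was 2, and without replicate 1 of quadriceps it was 3. Of the single-strand binding genes, Rpa1 had an adjusted p of 0.029 at a change of 0.92 ± 0.31, under the required fold. Markers of other cell types also differed: fibroblast markers summed to 262 to 479 units in quadriceps against 10.2 to 17.6 on day 4, red blood cell markers to 173 to 215 against 0.219 to 0.425, adipocyte markers to 141 to 740 against 0.137 to 0.289, and endothelial markers to 23.4 to 32.0 against 5.96 to 17.6. In every quadriceps sample all 7 fibroblast, 6 endothelial and 4 adipocyte markers, 4 of 5 red blood cell markers and 5 of 8 leukocyte markers were above background. Leukocyte markers summed to 40.4 to 69.9 in quadriceps against 48.6 to 73.4 on day 4, myoblast markers to 125 to 191 in quadriceps against 298 to 436, and adult muscle fibre markers to 8210 to 10400 in quadriceps against 1880 to 3780; the part of these markers' cells in the result was not tested.

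Proliferating and passage 0 myoblasts were compared to see whether passage in culture had changed the replication genes. None of the 48 was called in either direction by limma, where 0.772% and 0.398% of all genes were called lower and higher. At an unadjusted p under 0.05, 2 genes were lower, Orc2 and E2f8, and 0 were higher. The changes ran from -0.90 in E2f8 to 0.71 in Pold1, with SEs of 0.29 to 0.82, and the median was 0.11 against 0.14 over all genes. Cdt1 was at 5.33, 5.11 and 5.16 in proliferating myoblasts and 5.18, 4.99 and 5.04 at passage 0, and Mcm5 was at 4.66, 4.38 and 3.48 in proliferating myoblasts and 4.02, 4.00 and 3.76 at passage 0. Within the slides the median difference was 0.28, -0.39 and 0.34, so its sign was not the same on all of them. Without the dim array the median was 0.04 and again no gene was called. Fibroblast markers summed to 12.5 to 34.6 units in proliferating myoblasts and 29.9 to 71.2 at passage 0. Endothelial markers summed to 6.91 to 34.6 and 5.88 to 6.42 in the same order, and leukocyte markers to 25.2 to 92.4 and 24.1 to 39.7. The highest endothelial and leukocyte sums were those of the dim array. In every sample 3 of 8 leukocyte markers were above background in proliferating myoblasts and 7 of 8 at passage 0. The part of these markers' cells was not tested.

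Myoblasts were set against embryonic stem cells, which divide fast and spend much of their cycle in S phase. In passage 0 myoblasts 20 of 48 genes were lower and 1 was higher, where 19.8% and 17.6% of all genes were called lower and higher. In proliferating myoblasts 22 were lower and 1 was higher, where 19.7% and 15.7% of all genes were, and 17 were lower and 1 higher without the dim array, where the calls of Orc6, Mcm4, Pole, Pole2 and Pcna were lost. The median changes were -1.0 and -1.02, against -0.26 and -0.02 over all genes. Both comparisons share the stem cell samples. At passage 0 the lower genes numbered 13 without stem cell replicate 2 and 12 without passage 0 replicate 3, and in proliferating myoblasts 14 and 13 without stem cell replicates 2 and 3 and 9 with only those 2 groups in the fit. Within the slides the median difference was -1.22 to -0.96 for passage 0 and -1.26 to -0.61 for proliferating myoblasts. The stem cells had the highest mean of the 7 groups for 39 of the 48 genes.

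Mybl2 and Orc1 had the largest falls in both comparisons. Mybl2 had levels of 3.86, 4.12 and 3.37 at passage 0 and 4.23, 4.45 and 3.70 in proliferating myoblasts, against 7.36, 7.76 and 7.89 in stem cells. The changes were -3.89 ± 0.46 and -3.54 ± 0.46 (adjusted p = 2.2e-06 and 7.5e-06). Orc1 had levels of -2.60, -2.52 and -2.45 at passage 0 and -2.13, -2.18 and -2.35 in proliferating myoblasts, against 0.96, 1.55 and 1.48 in stem cells (-3.85 ± 0.55 and -3.55 ± 0.55, adjusted p = 2e-05 and 5.6e-05). Its partner Orc2 changed by -0.90 ± 0.36 at passage 0, which was not called, and by -1.67 ± 0.36 in proliferating myoblasts, which was. Of the MCM genes, Mcm10, Mcm5 and Mcm2 were lower, with changes of -2.21, -2.09 and -2.00 at passage 0 and -2.12, -1.85 and -1.82 in proliferating myoblasts. Mcm7 was lower in both (-1.22 and -1.03) and Mcm4 was called lower in proliferating myoblasts (-1.21) and not at passage 0 (-0.76), though it was not called between those 2 groups. Mcm3 and Mcm6 were not called. Rfc5 led the clamp loader genes, at -2.18 ± 0.43 and -1.94 ± 0.43.

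Of the 5 genes of nucleotide supply 0 were called in either comparison by limma, and at an unadjusted p under 0.05 1 was lower, Dut, in proliferating myoblasts. Tk1 was at 4.20, 3.98 and 3.72 at passage 0 and 4.56, 4.79 and 3.90 in proliferating myoblasts, against 3.91, 4.04 and 3.90 in stem cells. Rrm2 was at 6.75, 6.27 and 6.24 at passage 0 and 6.01, 6.68 and 5.44 in proliferating myoblasts, against 5.60, 5.98 and 5.99 in stem cells. The factors E2f1, E2f2, E2f7 and E2f8 were not called either, with changes between -0.76 and 0.95.

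Prim2, the large subunit of the primase, was the only member higher in myoblasts. Its levels were 1.94, 1.80 and 1.83 at passage 0 and 1.76, 2.10 and 1.5 in proliferating myoblasts, against -1.22, -1.29 and -2.83 in stem cells. The changes were 3.63 ± 0.41 and 3.56 ± 0.41 (adjusted p = 1.4e-06 and 2.1e-06), which are 12.4-fold and 11.8-fold higher means. The small subunit Prim1 went the other way, at -1.17 ± 0.37 and -1.53 ± 0.37 (adjusted p = 0.017 and 0.0032). The stem cell value of Prim2 is uneven: the 2 arrays of the same 129/Ola line gave levels of -4.20 and -1.45, a difference of -2.75, where the other 47 members differed by less than 1 log2 unit between those arrays, with a median of 0.18. Over all alternative settings, which include leaving out that line, the Prim2 changes stayed called, at 3.05 to 4.09 and 2.90 to 4.02. Prim2 then followed the other genes over differentiation, with changes of -2.74 on day 2 and -2.91 on day 4 against proliferating myoblasts. Its probe lies at chr1:33510733-33510792 of mm9.

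**Figure D4:**
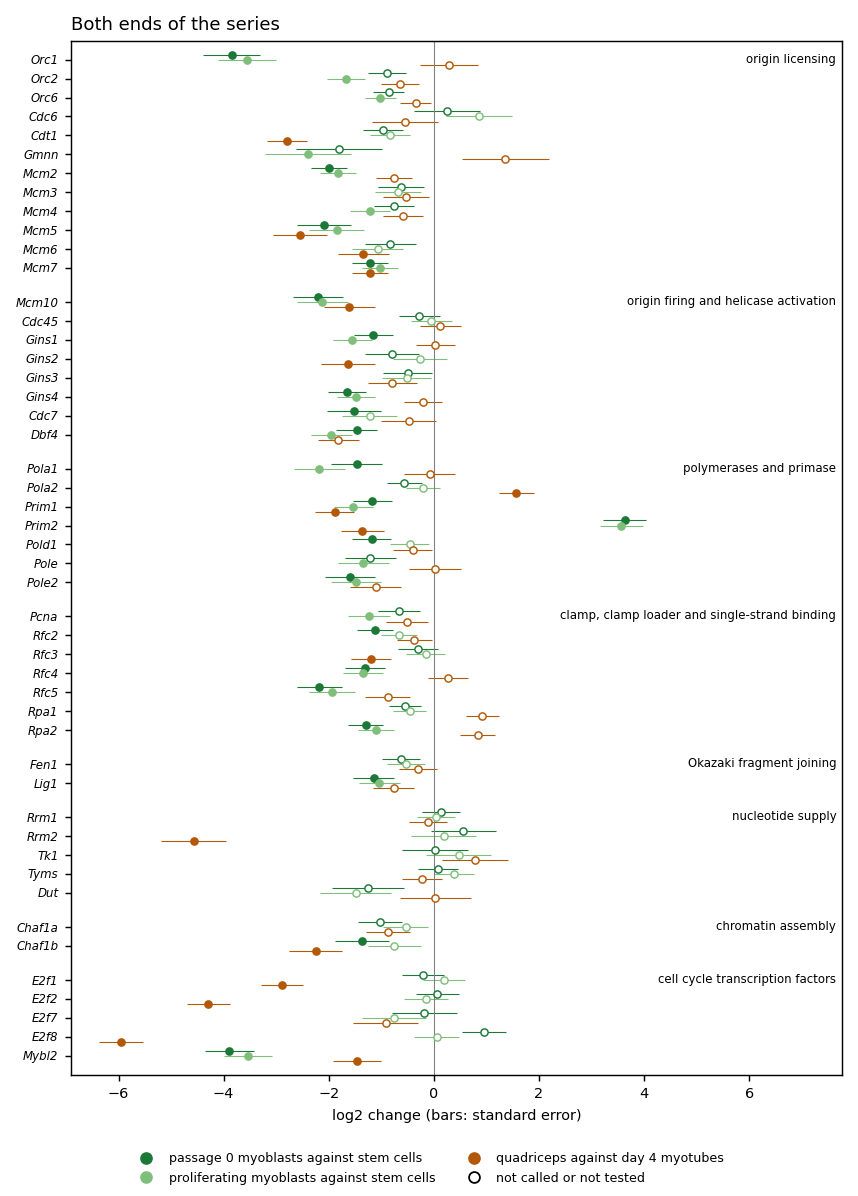
Log2 change of each of the 48 genes in passage 0 myoblasts against embryonic stem cells, proliferating myoblasts against embryonic stem cells, and quadriceps against day 4 myotubes, grouped by role; dots are changes, bars their standard errors, filled dots called genes and open dots genes not called or not tested. Prim2 is the filled dot right of 0 in both stem cell comparisons (3.63 and 3.56), and E2f8, Rrm2 and E2f2 lie farthest left in the quadriceps comparison.

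Several genes were read by more than 1 probe. E2f7 was the clearest disagreement: its brightest probe, at chr10:110224331-110224390 of mm9, gave -1.68, -4.64 and -3.28 on days 1, 2 and 4, and a second, at chr10:110219255-110219314, above background in all 21 samples, gave -0.45, 0.05 and 0.12. Over differentiation the 2 probes of Mcm3, Cdc6, Gmnn, Chaf1b and Mybl2 gave changes of the same sign on all 3 days. Against stem cells the probes of Cdc6, Gmnn and E2f7 differed in sign and those of Mcm3 and Pole in size. The values that follow are at passage 0 and in proliferating myoblasts, in that order. The second probe of Cdc6 gave -1.49 and -1.18 where the first gave 0.25 and 0.86. That of E2f7 gave 0.04 and 0.67 where the first gave -0.18 and -0.76. That of Mcm3 gave -2.34 and -2.42 where the first gave -0.63 and -0.68. Another Pole probe, above background in all samples of these groups, gave -2.93 and -2.50 where the brightest gave -1.21 and -1.34. The second probe of Gmnn gave 0.13 and 0.16 where the first gave -1.81 and -2.39. The 2 Gmnn probes were annotated on opposite strands, so they may not read the same transcript.

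Another 50 genes of replication and S phase outside the list gave smaller counts of lower genes over differentiation. Against proliferating myoblasts, 8 of 46 tested were lower and 1 was higher on day 1, 23 of 41 and 3 on day 2, and 24 of 38 and 1 on day 4, with medians of -0.74, -1.34 and -1.33. Of all genes tested, 3.25% were called lower and 5.91% higher on day 1, 9.96% and 15.1% on day 2, and 10.2% and 14.4% on day 4. The higher genes were thus a smaller share of these genes than of all genes on each day. On day 2 the lower genes included Top2a, the topoisomerase of replicated chromosomes (-5.41 ± 0.80, adjusted p = 8.3e-05), with 2 of 3 day 2 samples above background, and Ccna2, the cyclin of S phase (-4.95 ± 0.76, adjusted p = 0.00012), with 3 of 3. Dscc1, of an alternative clamp loader, was above background in no day 2 sample and at least 11.1-fold lower, so its place among them is not known. The higher genes were Top1, which relaxes supercoiled DNA in replication and transcription alike (2.02 ± 0.39, adjusted p = 0.00089), Pold4, the smallest subunit of polymerase delta (1.30 ± 0.46, adjusted p = 0.042), and Orc3 (1.00 ± 0.27, adjusted p = 0.01). On day 1, Shmt1, Recql4 and Timeless led the lower genes, with changes of -1.95, -1.87 and -1.80, and Top1 was higher by 2.07. On day 4 Ticrr, Top2a and Dscc1 were called lower with 1, 2 and 1 of 3 day 4 samples above background, so their order is not given, and Pold4 was the 1 higher gene (2.21 ± 0.46, adjusted p = 0.0014).

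In quadriceps against day 4, 11 of 38 of these genes were lower, led by Asf1b, Ccne1 and Cdk2 (-4.99, -3.48 and -2.96), and 5 were higher, among them Timeless and Asf1a (2.05 and 2.00). Of all genes tested, 16.4% were called lower and 14.7% higher, so the 5 higher genes were near the share of all genes. Between proliferating and passage 0 myoblasts 0 of 48 tested were called by limma, where 0.772% and 0.398% of all genes were called lower and higher. At an unadjusted p under 0.05 4 were lower and 0 higher. Against stem cells, 15 of 48 were lower at passage 0 and 18 of 48 in proliferating myoblasts, led by Ccne1, Shmt1 and Nasp (-2.16, -2.16 and -1.96) and by Ticrr, Atad5 and Nasp (-2.81, -2.55 and -2.26). Pold4 was higher in both (3.32 and 2.99), and Rnaseh2c was higher in proliferating myoblasts (1.23). Of all genes tested, 19.8% were called lower and 17.6% higher at passage 0, and 19.7% and 15.7% in proliferating myoblasts.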

How the data were processed

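Per the labels, total RNA was amplified, labelled with Cy3 and hybridised to 1-colour Agilent arrays. Per the file headers, Agilent Feature Extraction 10.7.3.1 (protocol GE1_107_Sep09, probe annotation on mm9) made the deposited intensity values, which are background-subtracted and not normalized between arrays. The authors also deposited log2 values with almost the same distribution in every column; their method is not given in the sources used here, and they served as an alternative only.

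From the 23 arrays, outlier-marked spots were dropped, spots of a probe averaged, each array's 75th percentile subtracted on the log2 scale and the brightest probe kept per gene. Of 55681 probes, 26582 were named through their RefSeq accession, 2602 by symbol, 492 by synonym and 26005 as in the files. Groups were compared with lmFit and eBayes of limma 3.58.1 (R 4.3.3) over 21 samples in 7 groups (14 residual degrees of freedom). The sample of NOD muscle has no replicate and stayed out of the tests. Spots above background made up 39.1 to 60.1% of an array. The fit was tested on simulated data for day 4 against proliferating myoblasts with 17382 genes. Of genes shifted by 1.5 log2 units 40% were recovered, and of those shifted by 3 log2 units 86%, with 7 false calls. The simulation gave all groups the same spread per gene and set every probe above background. In the data the median SD was 0.786 in proliferating myoblasts and 0.308 to 0.561 in the other groups. The simulated false calls therefore do not give the rate of false calls in that comparison.

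Proliferating myoblasts and myotubes share a number per replicate in their titles, whose meaning the labels do not give. Same-numbered samples deviated together in all 3 pairs (r above 0.1) for day 2 against proliferating myoblasts (0.171, 0.131 and 0.32) and day 4 against day 1 (0.167, 0.407 and 0.609), but not in the other comparisons of these groups. Proliferating and passage 0 myoblasts share 1 such number, whose pair had an r of -0.0809, too few for a block by that number. The comparison with the number as a block is an alternative.

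The members and lists were chosen with earlier results of these data known. All 48 members may be named; statistics are given for the largest called changes of each role and for members called against the majority, and sample values for 12 preset members and those called least often. Some further sample values, of Mcm3, Mcm10, Pole, Rfc5, Lig1 and Rrm1, were added after the values were seen. Other replication genes are named as the 3 largest measured called changes in each direction, except that some results are not reported here. Alternatives were the background correction, the normalization, the authors' values, the filter on dim probes, the mean of all probes, the slide or replicate number as a block, the groups in the fit, array weights, the fold minimum, the extra arrays and leaving out each sample.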

Additional observations from a re-analysis of the deposited data

Results flagged for a closer look

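A single sample of whole skeletal muscle from strain NOD/ShiLtj entered no comparison. Its level lay above every one of the 3 quadriceps samples for 5 of the 48 genes, on probes above background. In NOD muscle Gins3 was at 3.30, which is 0.07 above the highest quadriceps sample, Gins4 at 1.74 (0.42 above), Lig1 at 0.69 (0.18 above), Tk1 at 0.69 (0.01 above) and Tyms at -1.63 (0.87 above). For other genes it lay below every quadriceps sample, with larger differences from the lowest of them. These were -3.39 in Prim2, -2.45 in Gmnn, -1.42 in Pole2 and -1.23 in Mcm3. In the NOD sample the Mcm3 probe was above background, and those of Prim2, Gmnn and Pole2 were not. Without a replicate these differences have no error, and muscle, strain and sample cannot be told apart. With this sample added to the quadriceps, none of the called results was lost.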

How the results depend on the processing

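No called result of a member changed direction under any of the alternatives, and 101 of the 217 called results were kept under every one; the cause of the others was not tested. With only the 2 compared groups in the fit, which leaves fewer samples to estimate the spread, 103 of the 217 were lost: the lower genes numbered 0 on day 1 (with 0 higher) and 0 on day 4 against day 1, 7 on day 2 against day 1, and 9 in proliferating myoblasts against stem cells. The fit over 7 groups uses 1 estimate of the spread per gene for all of them. The median SD of a gene was 0.786 in proliferating myoblasts and 0.308 to 0.561 in the other groups. That estimate can therefore be too small for the proliferating samples, and the part of this in the lost calls was not tested. Day 1 against proliferating myoblasts gave 34 lower genes with quantile normalization and 35 with array weights, and 2 higher ones with normexp. In quadriceps against day 4 myotubes, the genes called higher numbered 0 with normexp, 0 where both groups had to be above background, 2 with quantile normalization and 2 by adjusted p alone, and array weights gave 1 gene higher in proliferating than in passage 0 myoblasts. The array weights, which ran from 0.046 to 7.17, came from an estimate in limma that stopped before it converged, so counts with them are approximate.

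When each sample was left out in turn, the counts of lower genes ranged from 7 (without day 1 replicate 3) to 24 on day 1, with 14 without proliferating replicate 2. They ranged from 41 to 43 on day 2 and from 39 to 42 on day 4, from 5 (without day 1 replicate 1 or 2, or day 4 replicate 2) to 34 for day 4 against day 1, and from 13 to 31 for day 2 against day 1 (13 and 14 without day 1 replicates 1 and 2). For quadriceps the lower genes ranged from 11 to 18 and the higher ones from 1 to 3 (2 without day 4 replicate 1 and 3 without quadriceps replicate 1). Against stem cells the lower genes ranged from 12 to 20 in passage 0 myoblasts (13 without stem cell replicate 2, 12 without passage 0 replicate 3) and from 13 to 21 in proliferating myoblasts (14 and 13 without stem cell replicates 2 and 3). For day 4 against day 2 the higher genes ranged from 0 to 1, the 1 gene being Pole without day 4 replicate 2.

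With the replicate number as a block, 41 genes were lower on day 2 against proliferating myoblasts, where Gins4 was lost, and 26 on day 4 against day 1; 2 of the 217 calls were lost in all, and no other count moved by over 1.5 times. Quantile normalization moved the median of all genes to -0.05 for proliferating against passage 0 myoblasts and to -0.08 for passage 0 myoblasts against stem cells, with medians of -0.02 and -1.02 for the members. Probes near background limit Orc1, Cdc7, Cdc6, Pola2 and Pole2 in the late groups.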
